A study of Mus musculus with 34 samples.

Results

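Macrophages and hepatocytes taken from the same livers were compared 48 h after carbon tetrachloride (CCl4), a toxin that kills the hepatocytes around the central veins, in mice whose biliary cells could lose the coactivators YAP and TAZ. The members were chosen by mouse number: the 4 mice labelled as CCl4-treated knockouts (13, 14, 17 and 18) each gave 1 macrophage and 1 hepatocyte library, which makes 8 of the 34 libraries of the series. These mice carried floxed alleles of Yap and Taz and the Opn-iCreERT2 driver, in which the osteopontin promoter controls a Cre recombinase switched on by tamoxifen, on a mixed B6;129P background. Per the labels, mice of all groups were given tamoxifen on 5 days at 1.6 mg/kg from an age of 7 to 8 weeks and then had a washout of 3 weeks. The CCl4 dose was 1 ml/kg, injected into the abdomen. Also used, for tests of how the difference between the cell types changes, were knockout livers without CCl4 (4 mice with both libraries) and CCl4-treated livers of siblings that carried the floxed alleles without the driver (3 mice). Livers labelled as controls without CCl4 (4 mice with both libraries) entered the shared fits, and so their estimate of the spread, and the marker shares. The driver is aimed at biliary epithelium, so neither cell type measured here is the one meant to be recombined, and the labels do not say where the deleted stretches lie relative to the 3′ ends that were read. The samples of a group are labelled as different mice.

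Hepatocytes fill most of the liver and make bile acids, urea, glucose and nearly all plasma proteins under a set of liver-enriched transcription factors, among them HNF4A, HNF1 and the FOXA proteins. Kupffer cells are the resident macrophages of the hepatic sinusoids. They take up particles, dead cells and iron-rich red cells from the blood, and they depend on PU.1 and on growth through the CSF1 receptor. After CCl4, dead hepatocytes are cleared by resident and newly arrived macrophages while surviving hepatocytes enter the cell cycle.

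Each library was made from the 3′ ends of polyadenylated RNA and counted per gene. The macrophage libraries held 596380 to 2166005 counts and the hepatocyte libraries 931496 to 2315274. Of 26233 genes in the macrophage table and 24951 in the hepatocyte table, 22586 were in both, and 9267 passed the filter on low counts over the 8 libraries. Values are CPM, the usual counts scaled to the size of each library, with TMM factors applied, and are given for mice 13, 14, 17 and 18 in that order. One tag is read per transcript and CPM were not divided by length, so that levels are compared between libraries and not between genes. In such bulk samples fewer cells of a type and less RNA per cell cannot be told apart.

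Marker genes separated the libraries by their labels. The hepatocyte product Alb, serum albumin, had 18968, 15259, 1635 and 1572 CPM in macrophages, against 72687, 74642, 73380.3 and 58038 CPM in hepatocytes. Adgre1, which encodes the F4/80 antigen used for the macrophage sort, had 276, 237, 700.4 and 761 CPM in macrophages, against 12.2, 2.17, 1.30 and 7.49 CPM in hepatocytes. Clec4f, a lectin of Kupffer cells, had 691, 636, 2182 and 2435 CPM in macrophages, against 11.3, 35.7, 19.5 and 49.6 CPM in hepatocytes. For each of these 3 genes the macrophage and hepatocyte libraries did not overlap. The share of all genes tested without overlap was not counted, so here and below a lack of overlap only describes the gene named. All 14 macrophage markers and the 9 Kupffer cell markers tested (of 12, median log2 fold change 5.56, or 5.58 without mice 13 and 14) were higher in macrophages, and all 16 hepatocyte markers (median -3.65, or -5.24 without mice 13 and 14) were higher in hepatocytes, in edgeR's quasi-likelihood test. Since F4/80 served in the sort, Adgre1 is a check of it and not a result. Among the Kupffer cell markers, Folr2 was nearly absent, with 1 count in the macrophage libraries. In brackets after each setting that ended a call, other than a test against a fold of 2, is the log2 fold change under it. The Alb call was lost without mouse 18 (-3.12).

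**Figure D1:**
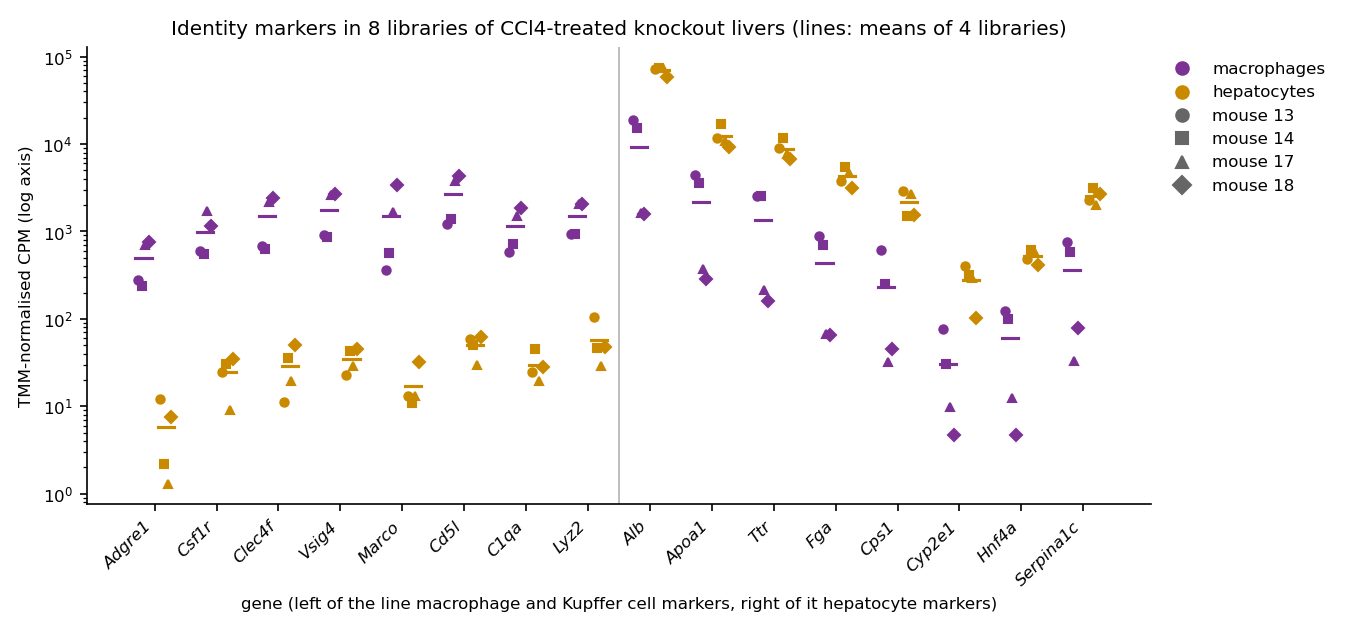
TMM-normalised CPM (log axis) of 8 macrophage or Kupffer cell markers and 8 hepatocyte markers in the 4 macrophage libraries (left of each pair) and the 4 hepatocyte libraries, with a symbol per mouse and a line at the mean. Macrophage libraries of mice 13 and 14 sit above those of mice 17 and 18 for hepatocyte genes such as Alb (18968 and 15259 CPM against 1635 and 1572 CPM).

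The macrophage libraries of mice 13 and 14 stood apart. Summed over 16 hepatocyte markers, with scaling factors of all 30 paired libraries, they held 27.0% and 19.8% of the level in the hepatocyte library of the same mouse, whereas those of mice 17 and 18 held 2.33% and 3.00%. In the other groups the same share ranged from 2.76% to 10.5% in uninjured knockouts, 0.404% to 16.1% in CCl4-treated controls and 9.29% to 12.8% in uninjured controls. Macrophage markers went the other way, with sums of 7224, 7415, 18363 and 17897 CPM in the 4 macrophage libraries. In the hepatocyte libraries the same 14 markers summed to 459, 442, 255 and 439 CPM, which is 6.35%, 5.96%, 1.39% and 2.45% of the macrophage library of the same mouse. None of the 16 hepatocyte markers was at 0 in every macrophage library, and none of the 14 macrophage markers was at 0 in every hepatocyte library. The counts that follow are therefore given also without mice 13 and 14, with the spread between mice then taken from all other paired libraries. Medians without mice 13 and 14, here and above, cover the list members tested in that fit. For some lists these were more than in the main fit, so such medians do not compare the same genes. In a further setting, also chosen after seeing the data, the hepatocyte counts of the same mouse were subtracted from each macrophage library, scaled so that Alb reached 0 there, which removed 34.3%, 28.7%, 3.07% and 3.40% of the macrophage counts. Genes whose macrophage counts follow Alb are taken towards 0 by this step, so lower medians for hepatocyte lists are built into it. The median log2 fold changes then were -7.53 for hepatocyte markers, -6.05 for cytochrome P450 genes and -5.36 for urea and amino acid metabolism. They were -5.64 for plasma proteins, -4.59 for coagulation genes, -4.88 for apolipoproteins, -4.57 for bile acid genes and -2.70 for mitochondrially encoded genes. Macrophage markers had 5.14.

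**Figure D2:**
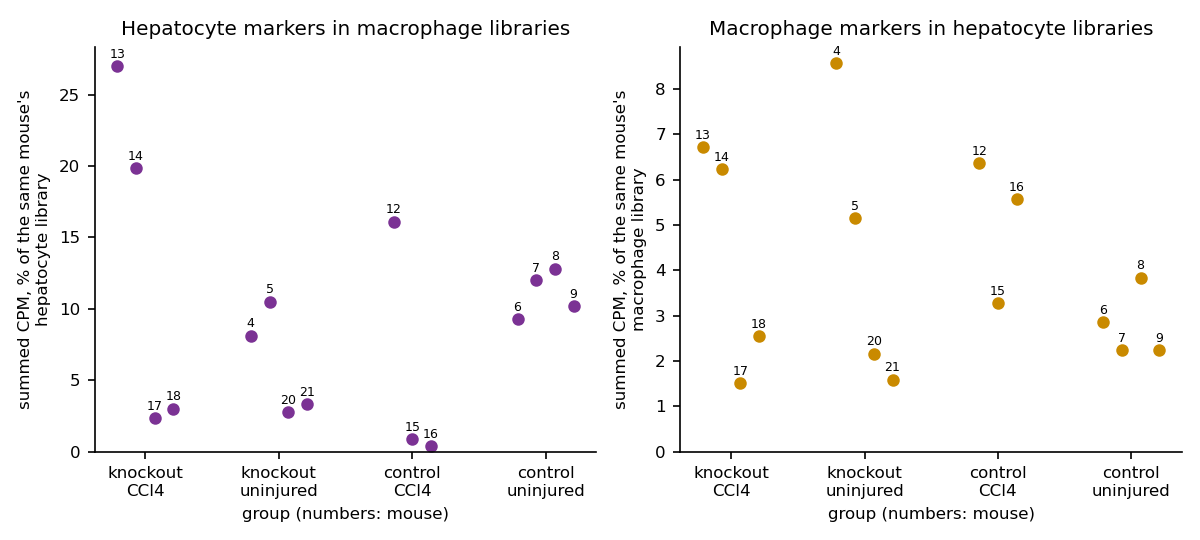
Left, CPM summed over 16 hepatocyte markers in each macrophage library as a percentage of the same mouse's hepatocyte library; right, CPM summed over 14 macrophage markers in each hepatocyte library as a percentage of the same mouse's macrophage library, for the 15 mice with both libraries. Mice 13 and 14 have the highest points of the left panel, at 27.0% and 19.8%.

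Of 9267 genes tested, 4473 (48.3%) differed between macrophages and hepatocytes at a Benjamini-Hochberg adjusted p below 0.05 in edgeR with mouse as a block. Higher in macrophages were 2314 (25.0%), and higher in hepatocytes 2159 (23.3%), with a median log2 fold change of 0.03 over all genes tested. Counts of list members below are to be read beside these shares. Without mice 13 and 14 the calls were 4472 of 12544 genes (35.7%), with 2083 higher in macrophages and 2389 in hepatocytes. Of the 4473 calls, 3529 were called again in the same direction and 0 changed sign. Scaling by library totals alone moved the median of all genes to 0.48 on the log2 scale, with 3423 genes then called higher in macrophages and 1288 in hepatocytes. Tested against a fold of 2, 1270 genes were higher in macrophages and 824 in hepatocytes. The called log2 fold changes reached 8.64 in favour of macrophages and -4.32 in favour of hepatocytes. In all, 683 genes were called higher in macrophages with a mean of at least 100 CPM there. In the hepatocyte libraries they stood at a median of 28.5%, 29.1%, 18.5% and 22.9% of their macrophage level in mice 13, 14, 17 and 18. Another 909 genes were called higher in hepatocytes with a mean of at least 100 CPM there. In the macrophage libraries these 909 stood at a median of 42.7%, 39.2%, 17.1% and 19.98% of their hepatocyte level. Without mouse 17, 1281 genes were called higher in hepatocytes.

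Some genes named here (members of the Cyp2c, Cyp3a, Cyp4a, Saa, Serpina1, class I and class II families) have near-identical copies between which tags could be split, so that their values are uncertain. Among genes with a mean of at least 100 CPM in macrophages, the largest differences in their favour were those of Gbp5, Adgre1, Pla2g7, Apbb1ip, Cyth4, Marco, Pf4 and Cd163. Gbp5, an interferon-induced GTPase that promotes inflammasome assembly, had 87.7, 79.4, 130.4 and 179.7 CPM in macrophages, against 1.88, 3.25, 0 and 0.468 CPM in hepatocytes. The fold change of Gbp5 was 6.47 ± 0.63 on the log2 scale (SE, n = 4 mice, edgeR adjusted p = 0.000763). Marco, a scavenger receptor for bacteria, had 361, 561, 1660.0 and 3395 CPM in macrophages, against 13.2, 10.8, 13.02 and 31.8 CPM in hepatocytes and a fold change of 6.08 ± 0.50 on the log2 scale (SE, n = 4 mice, edgeR adjusted p = 0.000461). The libraries of the 2 cell types did not overlap for either gene, and mice 17 and 18 had the higher macrophage levels of Marco. Pla2g7, the plasma platelet-activating factor acetylhydrolase, had 115, 67.5, 298 and 192 CPM in macrophages, against 3.76, 0, 1.30 and 2.34 CPM in hepatocytes. Cd163, the receptor that takes up haptoglobin-bound haemoglobin, had 189, 109, 953 and 595 CPM in macrophages, against 9.40, 4.33, 1.30 and 6.08 CPM in hepatocytes. Apbb1ip, which links Rap1 to integrin activation, Cyth4, an exchange factor of Arf GTPases, and Pf4, a platelet chemokine, had log2 fold changes of 6.09, 6.09 and 6.05.

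In the other direction stood A2ml1, Cyp3a11, Fga, Cyp4a31, Cyp2c29, Pck1, Cps1 and Nr0b2, each with a mean of at least 100 CPM in hepatocytes. Cyp3a11, a drug-metabolising cytochrome P450, had 231, 84.3, 26.4 and 10.8 CPM in macrophages, against 1202, 683, 2254 and 548 CPM in hepatocytes. The fold change of Cyp3a11 was -4.28 ± 0.82 on the log2 scale (SE, n = 4 mice, edgeR adjusted p = 0.00703). Pck1, the gluconeogenic enzyme PEPCK, had 416, 216, 40.2 and 24.0 CPM in macrophages, against 1776, 1357, 2559 and 1171 CPM in hepatocytes, and Cps1, the entry enzyme of the urea cycle, had 609, 249, 31.9 and 45.3 CPM in macrophages, against 2892, 1493, 2684 and 1542 CPM in hepatocytes. Neither gene overlapped between the cell types. Nr0b2, the bile acid-responsive repressor SHP, had 19.8, 9.05, 5.55 and 1.94 CPM in macrophages, against 121, 99.6, 129 and 131 CPM in hepatocytes, without overlap. The macrophage values of mice 13 and 14 were above those of mice 17 and 18 for all 4 of these genes. Without mice 13 and 14 their log2 fold changes were -6.12, -5.89, -5.79 and -5.49.

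Only 23 genes had a 95% interval of the log2 fold change that lay within -0.5 and 0.5. The 6 of highest level were Tnrc6a, Ywhag, Ube2k, Arhgef12, Ddx39b and Kif1b. Tnrc6a, a scaffold of microRNA silencing, had 209, 196, 201 and 165 CPM in macrophages, against 224, 164, 220.0 and 160.1 CPM in hepatocytes. Ywhag, a 14-3-3 protein, had 101, 162, 144 and 234 CPM in macrophages, against 91.2, 183, 159 and 208 CPM in hepatocytes. The 4 macrophage and 4 hepatocyte libraries overlapped for both genes, and the largest of the 6 log2 fold changes was 0.03 (Ube2k, a ubiquitin-conjugating enzyme).

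**Figure D3:**
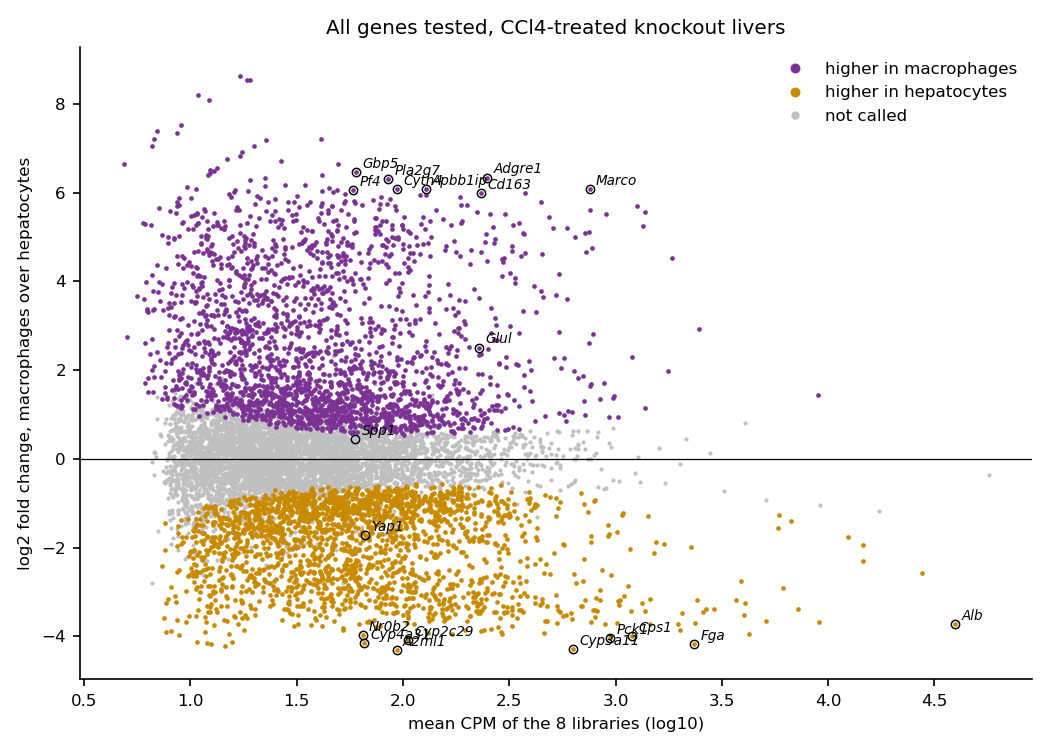
Log2 fold change of macrophages over hepatocytes against the mean CPM of the 8 libraries (log10) for the 9267 genes tested, with called genes in colour and the named genes circled. Calls reach 8.64 above 0 and -4.32 below it.

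The transcription factors that mark each lineage divided the libraries. Of 14 macrophage factors 13 were tested, of which 11 were higher in macrophages and 0 in hepatocytes, with a median log2 fold change of 4.53, or 5.02 without mice 13 and 14, beside 25.0% of all genes. Spi1, which encodes PU.1, had 127, 151, 381 and 333 CPM in macrophages, against 6.58, 9.75, 3.90 and 4.68 CPM in hepatocytes. Spic, a PU.1 relative needed for iron-recycling macrophages, had 65.1, 28.6, 153 and 117 CPM in macrophages, against 0, 2.17, 2.60 and 1.87 CPM in hepatocytes. Maf, which restrains macrophage proliferation, had a log2 fold change of 4.17, and Irf8 and Ikzf1, which act in myeloid and lymphoid development, had 4.70 and 4.53. None of these 5 genes overlapped between the cell types. Cebpb and Bhlhe40 did not pass the test, with 0.25 and 0.36.

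Of 14 hepatocyte factors 12 were tested, of which 9 were higher in hepatocytes and 0 in macrophages (median -2.69, or -4.75 without mice 13 and 14). Hnf4a had 124, 101, 12.5 and 4.65 CPM in macrophages, against 483, 608, 603 and 412 CPM in hepatocytes, without overlap, and its fold change was -3.94 ± 0.87 on the log2 scale (SE, n = 4 mice, edgeR adjusted p = 0.0110). Prox1, a homeobox factor of hepatocytes and lymphatic endothelium, Creb3l3, which drives lipid and acute-phase genes, and Ppara, the fatty acid receptor, had log2 fold changes of -2.79, -3.07 and -2.53. Cebpa, a factor of both lineages, had 123, 123, 139 and 87.1 CPM in macrophages, against 147, 157, 104 and 84.7 CPM in hepatocytes, and the libraries overlapped. Foxa3 had 42.5, 37.6, 0 and 0.387 CPM in macrophages, against 59.2, 136, 78.1 and 62.7 CPM in hepatocytes, and its fold change was -2.79 ± 0.99 on the log2 scale (SE, n = 4 mice, edgeR adjusted p = 0.0551), short of the threshold, and it passed without mice 13 and 14 (log2 -7.59, edgeR adjusted p = 0.000845). The Ppara call was lost without mouse 13 (-3.14), without mouse 17 (-2.23), under library totals (-2.09), without mouse as a block (-1.80) and with limma voom (-1.95).

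Promoters of called genes carried the letters of lineage factors at different shares. The PU.1 motif GAGGAAGT, on either strand, was in 3.20% of all 32851 RefSeq promoters of GRCm38.p6 (300 bases, of which 250 lie before the start), in 5.18% of those of genes higher in macrophages and in 2.49% of those of genes higher in hepatocytes. The HNF1 motif GTTAATNAT was in 0.801%, 0.382% (9 promoters) and 1.45% (31 promoters). An HNF4A motif, CAAAGTCCA, was in 0.475%, 0.425% and 0.798%. Among promoters of all genes tested the shares were 3.3% for PU.1, 0.545% for HNF1 and 0.469% for HNF4A. Past a fold of 2, the HNF1 share was 0.626% for genes higher in macrophages and 3.25% for those higher in hepatocytes. The same shares were 7.2% and 2.25% for PU.1, and 0.626% and 1.5% for HNF4A. The HNF1 motif was shortened after a longer form, with TAA added at its 3′ end, had matched no promoter of the hepatocyte genes described here. The longer form was in 0.0609% of all promoters, 0.0425% of those higher in macrophages and 0.235% of those higher in hepatocytes. Among genes tested it was in 0.0873%. In all, 4 motif forms were searched, and no test was made of these shares. Of 47 called macrophage genes of 4 lists 33 were in the promoter table, and 4 held the PU.1 letters. Of 59 called hepatocyte genes of 5 lists 50 were in it, and 3 held the shorter HNF1 letters, with 0 for HNF4A and 0 for the longer HNF1 form. The stretches below are shown because they belong to genes whose levels divide the cell types, with the motif in capitals, 5′ to 3′ on the strand of the gene, and no match is read as a site.
Fcgr4, chr1:171018866-171018925, + strand, PU.1 letters on the opposite strand: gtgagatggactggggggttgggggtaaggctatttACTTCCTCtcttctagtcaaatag
Vav1, chr17:57279040-57279099, + strand, PU.1 letters: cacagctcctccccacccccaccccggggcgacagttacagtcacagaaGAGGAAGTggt
C1qc, chr4:136893076-136893135, - strand, PU.1 letters on the opposite strand: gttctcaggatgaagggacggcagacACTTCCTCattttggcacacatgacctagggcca
Fga, chr3:83026081-83026140, + strand, HNF1 letters on the opposite strand: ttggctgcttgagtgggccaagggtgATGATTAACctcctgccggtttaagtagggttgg
Alb, chr5:90460810-90460869, + strand, HNF1 letters: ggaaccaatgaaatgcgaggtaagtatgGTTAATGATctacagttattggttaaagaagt
F13b, chr1:139501627-139501686, + strand, HNF1 letters on the opposite strand: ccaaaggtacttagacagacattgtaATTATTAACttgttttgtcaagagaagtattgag

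Genes of hepatocyte export and metabolism were mostly higher in hepatocytes. All 15 plasma and acute-phase proteins tested (of 16) were higher in hepatocytes, with a median of -3.41, or -5.07 without mice 13 and 14, beside 23.3% of all genes. Haptoglobin (Hp) and haemopexin (Hpx), which bind free haemoglobin and haem, had log2 fold changes of -3.18 and -3.38. Saa1, an acute-phase apolipoprotein, had 31.1, 25.1, 5.55 and 5.42 CPM in macrophages, against 68.6, 126, 113 and 133 CPM in hepatocytes, and Lcn2, which sequesters bacterial iron carriers, had 96.2, 85.0, 33.3 and 31.0 CPM in macrophages, against 239, 374, 610.4 and 788 CPM in hepatocytes. The cell types did not overlap for either gene.

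Of 12 apolipoproteins 11 were tested and 10 were higher in hepatocytes (median -3.15, or -4.92 without mice 13 and 14). Apoe, the exception, is made by macrophages as well. It had 4416, 4008, 8037 and 7832 CPM in macrophages, against 9549.8, 14566, 14021 and 10513 CPM in hepatocytes, without overlap, and its fold change of -1.05 ± 0.43 on the log2 scale (SE, n = 4 mice, edgeR adjusted p = 0.0813) did not pass the test. Apoc1, a small exchangeable apolipoprotein, had 879, 694, 589 and 662 CPM in macrophages, against 2557, 2543, 2658 and 2893 CPM in hepatocytes, without overlap. Its macrophage values were alike in all 4 mice, whereas those of Apoa1, the main protein of HDL, were lower in mice 17 and 18. Apoa1 had 4424, 3568, 373 and 289 CPM in macrophages, against 11753, 17006, 10876 and 9274 CPM in hepatocytes. The Apoa1 call was lost without mouse 17 (-2.82).

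All 14 cytochrome P450 genes tested (of 17) were higher in hepatocytes, with a median of -3.39, or -5.03 without mice 13 and 14. Cyp2e1, the enzyme that activates CCl4, had 77.4, 30.6, 9.71 and 4.65 CPM in macrophages, against 408, 318, 297 and 102 CPM in hepatocytes, and the cell types did not overlap. Its fold change was -3.65 ± 0.45 on the log2 scale (SE, n = 4 mice, edgeR adjusted p = 0.00161). Cyp4v3, a fatty acid hydroxylase, and Cyp2a5 had the smallest differences of the list, at -1.80 and -1.22. In bile acid synthesis and transport 13 of 14 tested genes (of 20) were higher in hepatocytes (median -3.02, or -4.18 without mice 13 and 14). For bile acid genes the counts higher in macrophages and in hepatocytes were 1 and 11 of 13 without mouse 13. Slc10a1, the uptake carrier NTCP, had 58.5, 29.9, 4.16 and 7.36 CPM in macrophages, against 260.4, 274, 273 and 155 CPM in hepatocytes, and Abcb11, the bile salt export pump, had 138, 84.3, 6.93 and 7.36 CPM in macrophages, against 532, 338, 441 and 212 CPM in hepatocytes. Both were free of overlap. Cyp7a1, the rate-limiting enzyme of bile acid synthesis, had 17.9, 2.79, 2.77 and 1.55 CPM in macrophages, against 53.6, 3.25, 37.7 and 9.36 CPM in hepatocytes, with overlap. Abcc3, an efflux pump of the basolateral membrane, did not pass the test, at -0.31. The Cyp2a5 call was lost without mouse 13 (-0.89), without mouse 14 (-1.31), without mice 13 and 14 (-0.87), under library totals (-0.77), without mouse as a block (-1.40), in the fit of mice 17 and 18 alone (-0.84) and with the hepatocyte profile subtracted (-1.94). The Cyp7a1 call was lost without mouse 17 (-1.61), without mouse as a block (-2.12) and without mice 17 and 18 (-1.30).

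In urea and amino acid metabolism 1 of 15 tested genes (of 17) was higher in macrophages and 14 in hepatocytes (median -3.08, or -4.42 without mice 13 and 14). The gene higher in macrophages was Glul, glutamine synthetase, which among hepatocytes marks those around the central vein. It had 321, 248, 573 and 412 CPM in macrophages, against 90.2, 69.3, 57.3 and 49.1 CPM in hepatocytes, without overlap, and a fold change of 2.51 ± 0.34 on the log2 scale (SE, n = 4 mice, edgeR adjusted p = 0.00195). Arg1, the last enzyme of the urea cycle, had 810.5, 258, 94.3 and 144 CPM in macrophages, against 2095, 681, 2037 and 1496 CPM in hepatocytes, and the macrophage library of mouse 13 lay above the hepatocyte library of mouse 14. Of cholesterol synthesis genes 15 of 19 tested (of 21) were higher in hepatocytes (median -1.68, or -2.11 without mice 13 and 14), among them Sc5d, a late sterol desaturase, at -3.03. Srebf2, which controls the pathway, had 0.20 and did not pass. All 15 tested fatty acid oxidation genes (of 16) were higher in hepatocytes (median -1.84, or -2.43 without mice 13 and 14). Cpt1a, which admits fatty acids to mitochondria, had -1.25.

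**Figure D4:**
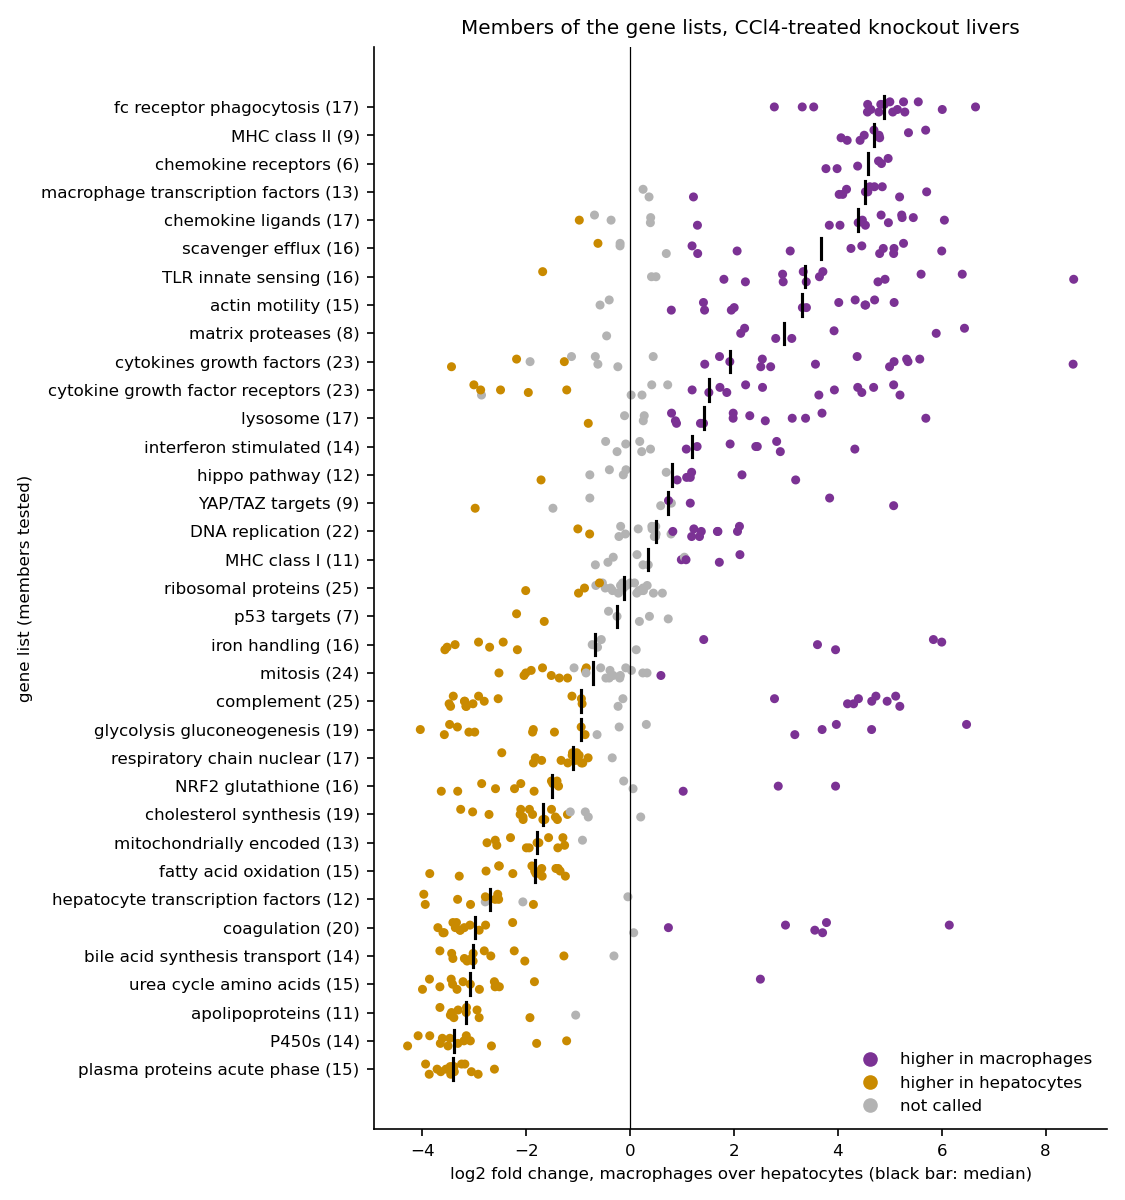
Log2 fold change of macrophages over hepatocytes for each tested member of the gene lists, with the number tested in brackets and a black bar at the median; lists run from the highest median at the top to the lowest. Phagocytosis genes have a median of 4.90 and plasma proteins one of -3.41, whereas complement, coagulation and iron genes lie on both sides of 0.

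Some lists had members called in each direction, as did all genes tested, with 25.0% higher in macrophages and 23.3% in hepatocytes. Of 25 tested complement genes (of 27), 9 were higher in macrophages and 14 in hepatocytes (median -0.94, or -1.35 without mice 13 and 14). C1q, which starts the classical pathway, came from the macrophage side: C1qa had 585, 714, 1485 and 1835 CPM in macrophages, against 24.4, 45.5, 19.5 and 28.1 CPM in hepatocytes, without overlap. C3, the component on which all pathways converge, had 1261, 1286, 158 and 149 CPM in macrophages, against 3927, 4781, 4434 and 3277 CPM in hepatocytes, also without overlap. The 3 chains of the terminal component C8 (C8a, C8b and C8g) had log2 fold changes of -3.46, -3.18 and -2.92. C6, another terminal component, went the other way, with 251, 115, 574 and 396 CPM in macrophages, against 63.0, 37.9, 39.0 and 31.8 CPM in hepatocytes. The fold change of C6 was 2.78 ± 0.46 on the log2 scale (SE, n = 4 mice, edgeR adjusted p = 0.00461), without overlap between the cell types. Properdin (Cfp) and the receptors C3ar1 and C5ar1 were higher in macrophages (4.95, 4.73 and 4.19). C2 and Masp1 did not pass the test. The C8b call was lost without mouse as a block (-2.25).

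Of 20 tested coagulation genes (of 21), 6 were higher in macrophages and 13 in hepatocytes (median -2.99, or -4.39 without mice 13 and 14). Prothrombin (F2) and factor V (F5) had log2 fold changes of -3.60 and -3.70. The A subunit of factor XIII, F13a1, had 9.44, 21.6, 33.3 and 15.5 CPM in macrophages, against 4.70, 0, 0 and 0.468 CPM in hepatocytes, whereas its B subunit F13b had 59.4, 40.4, 1.39 and 1.16 CPM in macrophages, against 206, 131, 155 and 98.3 CPM in hepatocytes. The 2 subunits thus had opposite differences, without overlap in either. Urokinase (Plau) had 3 counts over the hepatocyte libraries and 36.8, 33.4, 44.4 and 63.1 CPM in macrophages, a ratio of 79.3 (95% counting interval 26.9 to 387). Its receptor Plaur, tissue factor pathway inhibitor (Tfpi) and thrombomodulin (Thbd) were also higher in macrophages, at 3.71, 3.56 and 2.99. The F13a1 call was lost without mouse 14 (3.38) and without mouse 17 (3.30). The F13b call was lost without mouse 17 (-2.75).

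Of 16 tested iron genes (of 18), 5 were higher in macrophages and 7 in hepatocytes (median -0.68). Without mice 13 and 14 the median was -1.62 over 18 genes, and -0.87 over 17 in the fit of mice 17 and 18 alone. Hepcidin (Hamp), the hormone that degrades ferroportin, had 152, 153, 36.1 and 64.3 CPM in macrophages, against 401, 708, 1087 and 3806 CPM in hepatocytes. Ferroportin (Slc40a1), the iron exporter, had 585, 429.7, 1700.3 and 1730.1 CPM in macrophages, against 77.1, 83.4, 76.8 and 68.8 CPM in hepatocytes. Neither overlapped, and the differences ran in opposite directions, at -3.57 for Hamp and 3.61 for Slc40a1. Hmox1, which breaks down haem, had 87.7, 84.3, 214 and 366 CPM in macrophages, against 15.98, 14.1, 1.30 and 10.8 CPM in hepatocytes, and Slc11a1, the phagosomal metal transporter NRAMP1, 76.4, 61.3, 189 and 241 CPM in macrophages, against 2.82, 3.25, 1.30 and 1.87 CPM in hepatocytes. Both were higher in macrophages without overlap. Transferrin (Trf) and its sensor Tfr2 were higher in hepatocytes (-2.92 and -3.37). The ferritin chains Fth1 and Ftl1 and the transferrin receptor Tfrc did not pass the test, at -0.73, -0.55 and 0.12. The Hamp call was lost without mouse 17 (-3.01).

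Uptake and digestion marked the macrophages. All 17 genes of Fc receptors and phagocytosis were higher in them (median 4.90, or 5.69 without mice 13 and 14). Cybb, the catalytic subunit of the phagocyte NADPH oxidase, had 788, 783, 1719.7 and 1699.9 CPM in macrophages, against 41.4, 53.1, 20.8 and 34.2 CPM in hepatocytes. Fcgr4, an activating receptor for IgG, had 39.6, 42.5, 143 and 141 CPM in macrophages, against 0, 0, 6.51 and 0.936 CPM in hepatocytes, and Vav1, a guanine exchange factor downstream of such receptors, 42.5, 58.5, 76.3 and 113 CPM in macrophages, against 4.70, 0, 1.30 and 1.87 CPM in hepatocytes. None overlapped. Fcgr2b, the inhibitory Fc receptor that sinusoidal endothelium also makes, had the smallest difference, at 2.78, and was not called without mice 13 and 14 (edgeR adjusted p = 0.121).

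Of 16 scavenger and cholesterol efflux genes, 12 were higher in macrophages and 1 in hepatocytes (median 3.67, or 3.59 without mice 13 and 14). The receptors for dying cells Axl, Mertk and Timd4 had log2 fold changes of 5.07, 4.46 and 5.08. Abcg1, which exports cholesterol to HDL, had 139.6, 87.0, 298 and 302 CPM in macrophages, against 12.2, 9.75, 2.60 and 14.04 CPM in hepatocytes, while its partner Abca1 had 199, 109, 386 and 294 CPM in macrophages, against 167, 131, 117 and 139 CPM in hepatocytes. The libraries were apart for Abcg1 and overlapped for Abca1, which did not pass the test (0.70). Scarb1, the HDL receptor, was higher in hepatocytes (-0.62). Of 17 tested lysosomal genes (of 20), 13 were higher in macrophages and 1, Ctsl, in hepatocytes (median 1.41, or 1.62 without mice 13 and 14). Ctss, a protease of antigen presentation, had 5.69, Ctsb 1.98 and Ctsl -0.81. Lamp1 and Lamp2, membrane proteins of every lysosome, did not pass, at 0.25 and -0.11. The Scarb1 call was lost without mouse 13 (-0.60), without mouse 14 (-0.50), without mouse 17 (-0.72), without mouse 18 (-0.67), without mice 13 and 14 (-0.48), under library totals (-0.16), in the fit of mice 17 and 18 alone (-0.45), with RLE factors (-0.62), with upper quartile factors (-0.60), with no filter on low counts (-0.74), with thinned libraries (-0.62), in a fit that is not robust (-0.62) and with DESeq2 (-0.62). The Ctsl call was lost without mouse 13 (-0.85), without mouse 14 (-0.85), without mouse 17 (-0.71), without mouse 18 (-0.83) and under library totals (-0.34).

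Antigen presentation split by class. All 9 tested class II genes (of 11) were higher in macrophages (median 4.70, or 5.37 without mice 13 and 14). H2-Ab1, the beta chain of I-A, had 451, 359, 867 and 569.7 CPM in macrophages, against 49.8, 21.7, 13.02 and 17.8 CPM in hepatocytes, without overlap. Of 11 class I genes 4 were higher in macrophages and 0 in hepatocytes (median 0.35, or 0.62 without mice 13 and 14). Over all genes tested these shares were 25.0% and 23.3%. For class I genes the counts higher in macrophages and in hepatocytes were 7 and 0 of 11 under library totals and 4 and 1 of 11 without mouse as a block. B2m, the light chain of class I, had 2870.2, 2518, 3459 and 2783 CPM in macrophages, against 2411, 2571, 3162 and 2454 CPM in hepatocytes, and the cell types overlapped. Its fold change was 0.13 ± 0.31 on the log2 scale (SE, n = 4 mice, edgeR adjusted p = 0.747). H2-K1 had 582, 669, 716 and 735 CPM in macrophages, against 812, 1119.7, 1369 and 1052 CPM in hepatocytes, without overlap but short of the test, at -0.67. The proteasome subunits Psmb8 and Psmb9 and the peptide transporter Tap1 were higher in macrophages (1.08, 2.11 and 1.72). Of 14 tested interferon-stimulated genes (of 18) 8 were higher in macrophages and 0 in hepatocytes (median 1.19, or 1.29 without mice 13 and 14), with Ifi44 at 4.33. Ifitm3, Bst2 and Stat2 did not pass (-0.47, -0.25 and -0.08).

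Chemokines came mostly from the macrophage side. Of 17 tested chemokine genes (of 19), 12 were higher in macrophages and 1 in hepatocytes (median 4.39, or 5.01 without mice 13 and 14). Cxcl2, a ligand for neutrophils, had 1829, 1549, 2980.3 and 4095 CPM in macrophages, against 171, 37.9, 40.3 and 68.8 CPM in hepatocytes. Ccl2, which draws monocytes through CCR2, had 127, 116, 269 and 299.8 CPM in macrophages, against 7.52, 8.66, 6.51 and 9.83 CPM in hepatocytes. Both were free of overlap. Cxcl1, another neutrophil ligand, had 419, 556, 472 and 513 CPM in macrophages, against 582, 211, 327 and 467 CPM in hepatocytes, and Cxcl10, an interferon-induced ligand of CXCR3, 44.3, 58.5, 41.6 and 45.3 CPM in macrophages, against 82.7, 56.3, 27.3 and 90.3 CPM in hepatocytes. The cell types overlapped for these genes and neither passed the test (0.39 and -0.37). Ccl9 was the one higher in hepatocytes, with 154, 179, 126 and 136 CPM in macrophages, against 282, 188, 328 and 404 CPM in hepatocytes, without overlap. All 6 tested chemokine receptors (of 9) were higher in macrophages. Ccr2 had 129, 89.1, 141 and 88.3 CPM in macrophages, against 6.58, 1.08, 2.60 and 4.21 CPM in hepatocytes and Cx3cr1, the fractalkine receptor, 80.2, 84.3, 154 and 63.1 CPM in macrophages, against 2.82, 4.33, 2.60 and 5.62 CPM in hepatocytes. The Ccl9 call was lost without mouse 13 (-1.03), without mouse 17 (-0.85), without mouse 18 (-0.76), under library totals (-0.52) and without mice 17 and 18 (-0.50).

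Of 23 tested cytokines and growth factors (of 26), 14 were higher in macrophages and 3 in hepatocytes (median 1.92, or 1.41 without mice 13 and 14), with 12 and 6 without mice 13 and 14. Il1b had 1088, 1122, 1642 and 1715 CPM in macrophages, against 96.8, 36.8, 18.2 and 36.5 CPM in hepatocytes, and Tnf 141, 319, 336 and 682 CPM in macrophages, against 15.04, 4.33, 5.21 and 8.89 CPM in hepatocytes. Il6, which drives the acute-phase response, had 48.1, 17.4, 62.4 and 25.2 CPM in macrophages and 0 counts in all 4 hepatocyte libraries, which makes it at least 52.3-fold higher in macrophages against a floor of 3 counts over the hepatocyte group. Each of these 3 genes was free of overlap. Hbegf, a ligand of the EGF receptor, had 201, 155, 392 and 629 CPM in macrophages, against 46.1, 42.2, 41.7 and 53.8 CPM in hepatocytes. Il10, an anti-inflammatory cytokine, had a log2 fold change of 5.58. Hgf, a hepatocyte mitogen made by stellate and endothelial cells, had 49.1, 53.6, 41.6 and 14.7 CPM in macrophages, against 1.88, 2.17, 6.51 and 12.6 CPM in hepatocytes, without overlap. It was not called without mice 13 and 14 (log2 1.13, edgeR adjusted p = 0.456), and its macrophage level was higher in mice 13 and 14 than in mouse 18. The Hgf call was lost without mouse 13 (2.05), without mouse 14 (2.07), without mouse 17 (2.53), in the fit of mice 17 and 18 alone (1.09) and with thinned libraries (2.40).

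The stress cytokine Gdf15 and the angiogenic factor Vegfa were higher in hepatocytes (-2.19 and -1.27). Igf1 had 695, 517, 972 and 1000.4 CPM in macrophages, against 1006, 877, 815 and 936 CPM in hepatocytes, with overlap, and did not pass the test (-0.24). Of 23 tested receptors (of 27), 13 were higher in macrophages and 5 in hepatocytes (median 1.52, or 0.86 without mice 13 and 14), with 11 and 6 without mice 13 and 14. For these receptors the counts higher in macrophages and in hepatocytes were 13 and 3 of 24 without mouse 17 and 16 and 3 of 23 under library totals. The 5 higher in hepatocytes were Egfr, Ghr, Met, Erbb3 and Il1rap, receptors for EGF ligands, growth hormone, HGF and neuregulins and the accessory chain of the IL-1 receptor. Egfr had 35.9, 68.2, 13.9 and 5.03 CPM in macrophages, against 146, 329, 116 and 178 CPM in hepatocytes, and Met 42.5, 32.7, 8.32 and 2.32 CPM in macrophages, against 108, 83.4, 87.2 and 76.8 CPM in hepatocytes. The cell types did not overlap for Egfr or Met. For some ligand and receptor pairs the differences were opposite: Hbegf had 2.71 and its receptor Egfr -3.01, while for Il6 the receptor chains Il6ra and Il6st had 0.42, which did not pass the test, and 1.52. Csf1r, the receptor that sustains macrophages, had 595, 547, 1703 and 1141 CPM in macrophages, against 24.4, 30.3, 9.11 and 34.6 CPM in hepatocytes, and its ligand Csf1 39.6, 27.9, 16.6 and 9.68 CPM in macrophages, against 9.40, 5.41, 6.51 and 8.42 CPM in hepatocytes, without overlap for either. Csf1 was not called without mice 13 and 14 (edgeR adjusted p = 0.542). The Vegfa call was lost without mouse 17 (-1.12), without mouse 18 (-0.96), under library totals (-0.81) and without mice 17 and 18 (-0.68). The Met call was lost without mouse 17 (-2.29). The Erbb3 call was lost without mouse 14 (-2.13) and under library totals (-1.50). The Il1rap call was lost without mouse 17 (-1.01) and under library totals (-0.77). The Il6st call was lost without mice 13 and 14 (0.83). The Csf1 call was lost without mouse 13 (1.18), without mouse 14 (1.16), without mouse 17 (1.46) and in the fit of mice 17 and 18 alone (0.58).

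Sensors of microbes and damage followed. Of 16 tested innate sensing genes (of 21), 13 were higher in macrophages and 1, Lbp, in hepatocytes (median 3.36, or 3.90 without mice 13 and 14). Tlr7, a sensor of single-stranded RNA, had 28.3, 22.3, 65.2 and 32.5 CPM in macrophages and 0 counts in hepatocytes, so it was at least 54.3-fold higher in macrophages. Nlrp3, the inflammasome sensor, had 136, 96.1, 264 and 236 CPM in macrophages, against 5.64, 1.08, 1.30 and 5.62 CPM in hepatocytes. Lbp, the plasma protein that hands lipopolysaccharide to CD14, had 75.5, 97.5, 22.2 and 30.6 CPM in macrophages, against 174, 185, 219 and 95.01 CPM in hepatocytes, with overlap, while Cd14 had 245, 275, 429 and 358 CPM in macrophages, against 44.2, 46.6, 29.9 and 44.9 CPM in hepatocytes, without it. Ly96, the MD-2 chain of the lipopolysaccharide receptor, did not pass (0.41). Of 8 tested matrix proteases and inhibitors (of 13) 7 were higher in macrophages (median 2.96, or 2.51 without mice 13 and 14). Mmp12, the macrophage elastase, had 67.9, 100.3, 221 and 234 CPM in macrophages, against 0.940, 1.08, 1.30 and 6.08 CPM in hepatocytes, and Mmp14, which did not pass, 165, 169, 105 and 55.8 CPM in macrophages, against 132, 120.2, 189 and 198 CPM in hepatocytes.

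Energy metabolism and the cytoskeleton also separated the libraries. Of 13 mitochondrially encoded genes 12 were higher in hepatocytes (median -1.79, or -2.16 without mice 13 and 14), as were 16 of 17 tested nuclear genes of the respiratory chain (of 20; median -1.09, or -1.48 without mice 13 and 14). For mitochondrially encoded genes the counts higher in macrophages and in hepatocytes were 0 and 6 of 13 without mouse 17 and 0 and 5 of 13 without mouse 18. For the respiratory chain the counts higher in macrophages and in hepatocytes were 0 and 9 of 17 without mouse 17 and 0 and 7 of 17 under library totals. Library totals gave 8 of 13 mitochondrially encoded genes higher in hepatocytes. mt-Nd4, a subunit of complex I, had 11326, 10782, 5259 and 5674 CPM in macrophages, against 43818, 38777, 63639 and 42123 CPM in hepatocytes, without overlap, and Atp5b, a subunit of ATP synthase, 518, 522, 337 and 443 CPM in macrophages, against 1073, 978, 1082 and 995 CPM in hepatocytes. Of 19 tested glycolysis and gluconeogenesis genes (of 22), 5 were higher in macrophages and 11 in hepatocytes (median -0.94). Without mice 13 and 14 the median was -1.64 over 20 genes, and -1.23 over 19 in the fit of mice 17 and 18 alone. The 5 were the hexokinases Hk1, Hk2 and Hk3, the phosphofructokinase Pfkp and the pyruvate kinase Pkm. Hk2 had 74.5, 134, 125 and 147 CPM in macrophages, against 9.40, 3.25, 3.90 and 2.81 CPM in hepatocytes, without overlap. Ldha, lactate dehydrogenase, had 403, 509, 199.7 and 249 CPM in macrophages, against 798, 1223, 1312 and 1463 CPM in hepatocytes. Of 15 tested actin genes (of 17) 13 were higher in macrophages and 0 in hepatocytes (median 3.32), with Tmsb4x at 4.54, Vim at 3.32 and Actb at 1.43. All 17 were tested without mice 13 and 14 (median 2.46) and in the 30-library fit (median 1.92). Of 25 ribosomal protein genes 0 were higher in macrophages and 4 in hepatocytes, a smaller share than the 23.3% of all genes, with a median of -0.13, or -0.35 without mice 13 and 14. Under library totals the direction turned, with a median of 0.33. For ribosomal protein genes the counts higher in macrophages and in hepatocytes were 0 and 2 of 25 without mouse 13, 0 and 1 of 25 without mouse 14, 0 and 0 of 24 without mouse 17, 0 and 1 of 25 without mouse 18 and 6 and 0 of 25 under library totals. The mt-Nd4 call was lost with the hepatocyte profile subtracted (-4.62). The Actb call was lost without mouse 13 (1.47), without mouse 17 (1.35) and without mouse 18 (1.29).

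In glutathione and NRF2-linked genes 3 of 16 tested (of 19) were higher in macrophages and 11 in hepatocytes (median -1.50, or -2.22 without mice 13 and 14). For glutathione and NRF2-linked genes the counts higher in macrophages and in hepatocytes were 2 and 7 of 16 without mouse 17. Gstm1, a glutathione transferase, had 702, 501, 121 and 108 CPM in macrophages, against 1586, 1611, 2506 and 2022 CPM in hepatocytes, without overlap, and Nqo1 2.83, 2.79, 1.39 and 1.55 CPM in macrophages, against 16.9, 15.2, 22.1 and 32.8 CPM in hepatocytes. Hmox1, G6pdx and Pgd were the 3 higher in macrophages. Metallothioneins Mt1 and Mt2 had log2 fold changes of -1.49 and -1.85. The Gstm1 call was lost without mouse 17 (-2.31). The Pgd call was lost without mouse 17 (0.94), without mouse 18 (0.78) and without mice 17 and 18 (0.51). The Mt1 call was lost without mouse 17 (-1.12), without mouse 18 (-1.22) and under library totals (-1.03). The Mt2 call was lost without mouse 17 (-1.39), without mouse 18 (-1.47) and under library totals (-1.39).

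Genes of the cell cycle were expressed in both cell types at this time. Of 24 tested mitosis genes (of 25), 1 was higher in macrophages and 10 in hepatocytes (median -0.71, or -1.01 without mice 13 and 14). Mki67, a marker of cycling cells, had 192, 236, 166 and 227 CPM in macrophages, against 311, 279, 193 and 369.7 CPM in hepatocytes, and Top2a, a topoisomerase of dividing cells, 296, 489.6, 337 and 558 CPM in macrophages, against 301, 338, 268 and 407 CPM in hepatocytes. Both overlapped and neither passed the test (-0.47 and 0.33). Ccnb1, the cyclin that starts mitosis, had 28.3, 31.3, 22.2 and 15.5 CPM in macrophages, against 82.7, 70.4, 116 and 131 CPM in hepatocytes, and Cdc20, which ends it, 54.7, 42.5, 8.32 and 18.98 CPM in macrophages, against 133, 151, 151 and 195 CPM in hepatocytes. Those 2 genes were free of overlap, with fold changes of -2.04 ± 0.36 on the log2 scale (SE, n = 4 mice, edgeR adjusted p = 0.00496) and -2.53 ± 0.49 on the log2 scale (SE, n = 4 mice, edgeR adjusted p = 0.00729). Kif23, a motor of cytokinesis, was the one higher in macrophages (0.59). Of 22 tested DNA replication genes (of 24), 9 were higher in macrophages and 2 in hepatocytes (median 0.50, or 0.84 without mice 13 and 14). Mcm3, a subunit of the replicative helicase, had 104, 144, 123 and 319 CPM in macrophages, against 26.3, 81.2, 50.8 and 52.0 CPM in hepatocytes, and Pola1, the primase-bound polymerase, 75.5, 91.9, 104 and 189 CPM in macrophages, against 19.7, 28.2, 18.2 and 38.4 CPM in hepatocytes. Both were free of overlap. Tyms, which makes thymidylate, was higher in hepatocytes (-0.78). Without mice 13 and 14 the counts were 0 and 9 of 24 for mitosis and 7 and 0 of 24 for replication. For mitosis genes the counts higher in macrophages and in hepatocytes were 0 and 8 of 24 without mouse 13, 0 and 12 of 24 without mouse 14, 0 and 6 of 24 without mouse 17, 0 and 7 of 24 without mouse 18, 3 and 6 of 24 under library totals and 0 and 11 of 24 without mouse as a block. For replication genes the counts higher in macrophages and in hepatocytes were 7 and 0 of 22 without mouse 13, 5 and 0 of 22 without mouse 17, 6 and 1 of 22 without mouse 18, 14 and 0 of 22 under library totals and 7 and 1 of 22 without mouse as a block. Of 7 tested p53 targets (of 11) 2, Gdf15 and Trp53inp1, were higher in hepatocytes, beside 23.3% of all genes. Cdkn1a had 259, 283, 172 and 182 CPM in macrophages, against 205, 206, 154 and 214 CPM in hepatocytes, with overlap (0.18). For p53 targets the counts higher in macrophages and in hepatocytes were 1 and 2 of 7 under library totals. The Kif23 call was lost without mouse 13 (0.54), without mouse 14 (0.57), without mouse 17 (0.56), without mouse 18 (0.70), without mice 13 and 14 (0.41), without mouse as a block (0.58), in the fit of mice 17 and 18 alone (0.42), without mice 17 and 18 (0.66), in the 30-library fit (0.51), with no filter on low counts (0.48), with thinned libraries (0.48), with the hepatocyte profile subtracted (0.61) and with DESeq2 (0.59). The Tyms call was lost without mouse 13 (-0.65), without mouse 17 (-0.74), without mouse 18 (-0.82), without mice 13 and 14 (-0.86), under library totals (-0.32), without mouse as a block (-0.70), without mice 17 and 18 (-0.79) and with DESeq2 (-0.79).

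The genes targeted by the cross were present in both cell types. Yap1, at chromosome 9 positions 7931999 to 8004596 (GRCm38, GENCODE vM21), had 44.3, 64.1, 16.6 and 13.2 CPM in macrophages, against 76.1, 106, 107 and 101 CPM in hepatocytes, without overlap. Its fold change was -1.71 ± 0.46 on the log2 scale (SE, n = 4 mice, edgeR adjusted p = 0.0210). Wwtr1, which encodes TAZ, had 61.3, 49.4, 20.8 and 11.2 CPM in macrophages, against 32.0, 31.4, 46.9 and 24.8 CPM in hepatocytes, with overlap. Its fold change, short of the threshold, was -0.13 ± 0.44 on the log2 scale (SE, n = 4 mice, edgeR adjusted p = 0.824). Macrophages had the higher Wwtr1 value in mice 13 and 14, and hepatocytes in mice 17 and 18. Spp1, whose promoter drives the Cre, had 101, 100.3, 59.6 and 24.4 CPM in macrophages, against 56.4, 36.8, 29.9 and 68.8 CPM in hepatocytes, and its fold change was 0.44 ± 0.51 on the log2 scale (SE, n = 4 mice, edgeR adjusted p = 0.5003). The cell types overlapped for Spp1. The macrophage values of Yap1 and Wwtr1 were higher in mice 13 and 14 than in mice 17 and 18, as were those of stellate and endothelial markers. Of 12 tested Hippo pathway genes (of 17), 6 were higher in macrophages and 1 in hepatocytes (median 0.80, or 0.73 without mice 13 and 14), with Mob1a at 2.15 and Lats2 at 1.16. For Hippo pathway genes the counts higher in macrophages and in hepatocytes were 4 and 0 of 12 without mouse 17 and 7 and 0 of 12 under library totals. They were 4 and 2 of 13 without mice 13 and 14, and 6 and 4 of 12 in the fit of mice 17 and 18 alone. Of 9 tested YAP and TAZ target genes (of 15), 4 were higher in macrophages and 1 in hepatocytes (median 0.74, or 0.24 without mice 13 and 14), with 3 and 3 without mice 13 and 14. For YAP and TAZ targets the counts higher in macrophages and in hepatocytes were 3 and 3 of 10 without mouse 13 and 4 and 2 of 10 without mouse 18. Over all genes tested, 25.0% were called higher in macrophages and 23.3% in hepatocytes. The 4 targets called higher in macrophages were Axl, Myof, Crim1 and Lats2. The 1 was Cib3, a calcium-binding protein. Lists were drawn up with earlier results of these data known, and whether Cib3 is a target of YAP and TAZ was not tested. Cib3 had 4.72, 9.75, 4.16 and 0.387 CPM in macrophages, against 27.3, 34.7, 40.3 and 24.8 CPM in hepatocytes, and no overlap. The fold change of Cib3 was -2.98 ± 0.58 on the log2 scale (SE, n = 4 mice, edgeR adjusted p = 0.00682). Ccn1 and Ccn2, the matricellular targets CYR61 and CTGF, had log2 fold changes of -1.49 and 0.79 and did not pass. The Yap1 call was lost without mouse 17 (-1.45) and under library totals (-1.26). The Crim1 call was lost without mouse 13 (0.56), without mouse 17 (0.74), without mouse 18 (0.80), without mice 13 and 14 (0.56), in the fit of mice 17 and 18 alone (0.59), in the 30-library fit (0.66) and with no filter on low counts (0.62).

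Markers of other liver cells were measured in the same libraries. Summed over 12 stellate cell markers, the macrophage libraries held 5145, 5173, 1711 and 768 CPM and the hepatocyte libraries 422, 767, 410.0 and 657 CPM. Of 10 tested, 9 were higher in macrophages, but 3 of 10 without mouse 13, 14 or 17 alone, and 3 of 12 in the 30-library fit with no mouse left out. Without mice 13 and 14, 5 of 10 were called in the fit of mice 17 and 18 alone, and 0 of 12 with the spread of all other paired libraries. Col1a1, a fibrillar collagen, had 643, 963, 179 and 115 CPM in macrophages, against 55.5, 208, 45.6 and 57.6 CPM in hepatocytes. Summed over 12 endothelial markers the macrophage libraries held 2901, 2679, 1875 and 1241 CPM and the hepatocyte libraries 138, 232, 124 and 245 CPM. All 12 were higher in macrophages, as were 11 of 12 in the fit of mice 17 and 18 alone and 4 of 12 for those mice with the spread of all other paired libraries. Biliary markers summed to 283, 334, 101 and 61.2 CPM in macrophages and 416, 475, 281 and 399 CPM in hepatocytes over 10 genes, with Cftr at 2 counts in each cell type. Haemoglobin and platelet markers summed to 812, 693, 942 and 317 CPM in macrophages and 9.40, 11.9, 5.21 and 14.04 CPM in hepatocytes. That sum includes Pf4, named above among the largest differences in favour of macrophages, and which cells its RNA came from was not tested. Of 5 biliary markers tested, Sox9 and Prom1 were higher in hepatocytes. For biliary markers the counts higher in macrophages and in hepatocytes were 0 and 1 of 7 without mouse 17, 1 and 2 of 5 without mouse 18 and 0 and 1 of 5 without mouse as a block. B and plasma cell markers summed to 550.1, 305, 211 and 65.5 CPM in macrophages and 35.7, 11.9, 9.11 and 16.8 CPM in hepatocytes over 6 genes, and all 3 tested were higher in macrophages. T and NK cell markers reached at most 87.7 CPM in a macrophage library, neutrophil markers 211 CPM and dendritic cell markers 88.7 CPM. The part of these cells in the differences above was not tested. Markers of monocytes (11 of 12 higher in macrophages, median 3.99, or 4.41 without mice 13 and 14) and markers of lipid-associated macrophages (4 of 9 higher in macrophages, 1 in hepatocytes, median 0.44, or -0.48 without mice 13 and 14) were also listed. For the lipid-associated markers the counts higher in macrophages and in hepatocytes were 3 and 0 of 9 without mouse 17, 4 and 0 of 9 without mouse 18 and 4 and 0 of 9 under library totals. Over all genes tested, 25.0% were higher in macrophages and 23.3% in hepatocytes. Fn1, on the monocyte list, is also a plasma protein of hepatocytes and was higher there (-2.50). The Col1a1 call was lost without mice 13 and 14 (1.35). The Sox9 call was lost without mouse 17 (-1.71) and without mouse as a block (-1.38).

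Whether the difference between the cell types was itself altered by CCl4 in knockouts was tested over the 30 paired libraries. Of 11844 genes, 5 (0.0422%) had a different macrophage over hepatocyte ratio in CCl4-treated than in uninjured knockout livers, 3 (0.0253%) with a higher and 2 (0.0169%) with a lower ratio. At an unadjusted p below 0.05 there were 914, and DESeq2 called 64. Leaving out single mice gave 1 call without uninjured mouse 5 or 21 or CCl4-treated mouse 17, 2 without mouse 18, 3 without mouse 4, 13 or 14, and 13 without mouse 20. Without mice 13 and 14, 4 genes were called, of which Glul, Slc1a2 and Tubb6 were among the 5, while the calls of Idi1 and Hilpda were lost. The Slc1a2 call was not lost in any setting run. Values in these comparisons carry TMM factors of all 30 libraries and are given for mice 4, 5, 20 and 21 in uninjured knockouts and 12, 15 and 16 in controls. Glul had 273, 213, 474 and 358 CPM in macrophages and 81.1, 62.1, 51.7 and 44.4 CPM in hepatocytes of CCl4-treated knockouts, against 438, 566, 424 and 349 CPM in macrophages and 355, 1280.0, 1122 and 2045 CPM in hepatocytes of uninjured knockouts. The hepatocyte groups did not overlap and the macrophage groups did. The difference of the log2 ratios was 3.65 ± 0.54 on the log2 scale (SE, 4 mice per condition, edgeR adjusted p = 0.0139). The Glul call was lost without uninjured mouse 5 (edgeR adjusted p = 0.0620) or 21 (0.0526), CCl4-treated mouse 17 (0.0738) or 18 (0.0503), and the pairs with a library of the lower file numbers (0.115). Slc1a2, a glutamate transporter of hepatocytes around the central vein, had 14.4, 6.57, 25.2 and 50.2 CPM in macrophages and 0, 0, 0 and 2.11 CPM in hepatocytes of CCl4-treated knockouts, against 23.3, 44.2, 42.0 and 45.4 CPM in macrophages and 20.1, 84.2, 61.3 and 135 CPM in hepatocytes of uninjured knockouts. The difference was 5.84 ± 0.66 on the log2 scale (SE, 4 mice per condition, edgeR adjusted p = 0.00137), a fitted value that depends on the prior count, since 3 hepatocyte libraries were at 0.

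Idi1, an enzyme of cholesterol synthesis, had 26.2, 12.6, 16.4 and 22.8 CPM in hepatocytes of CCl4-treated knockouts, against 218, 165, 88.6 and 99.7 CPM in hepatocytes of uninjured ones, without overlap. Its macrophage levels overlapped, and the difference was 3.08 ± 0.46 on the log2 scale (SE, 4 mice per condition, edgeR adjusted p = 0.0139). The fit without mouse as a block also took in the unpaired libraries, all 34 of the series. The Idi1 call was lost in that fit (edgeR adjusted p = 0.103) and without mice 13 and 14 (0.363). It was also lost without uninjured mouse 4 (0.0568), 5 (0.0620) or 21 (0.0627) or CCl4-treated mouse 13 (0.109), 14 (0.0731) or 17 (0.0534). Tubb6, a tubulin, had 149, 162, 178 and 265 CPM in hepatocytes of CCl4-treated knockouts, against 26.8, 18.7, 45.3 and 17.3 CPM in hepatocytes of uninjured ones, without overlap, and a difference of -2.70 ± 0.40 on the log2 scale (SE, 4 mice per condition, edgeR adjusted p = 0.0139). The Tubb6 call was lost without uninjured mouse 4 (edgeR adjusted p = 0.0568), 5 (0.0642) or 21 (0.0627) and without CCl4-treated mouse 17 (0.0738) or 18 (0.0503). Hilpda, which inhibits lipolysis on lipid droplets, had 201, 164, 201 and 327 CPM in macrophages and 54.9, 51.4, 49.3 and 51.5 CPM in hepatocytes of CCl4-treated knockouts, against 542, 387, 501 and 369 CPM in macrophages and 45.1, 26.5, 18.9 and 10.8 CPM in hepatocytes of uninjured knockouts. Neither cell type overlapped between the conditions, and the difference was -2.19 ± 0.34 on the log2 scale (SE, 4 mice per condition, edgeR adjusted p = 0.0165). The Hilpda call was lost in the 34-library fit without mouse as a block (edgeR adjusted p = 0.113) and without mice 13 and 14 (0.346). It was also lost without the pairs with a library of the lower file numbers (0.147), and without uninjured mouse 5 (0.0620) or 21 (0.0627) or CCl4-treated mouse 13 (0.109), 14 (0.108), 17 (0.0740) or 18 (0.0503).

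**Figure D5:**
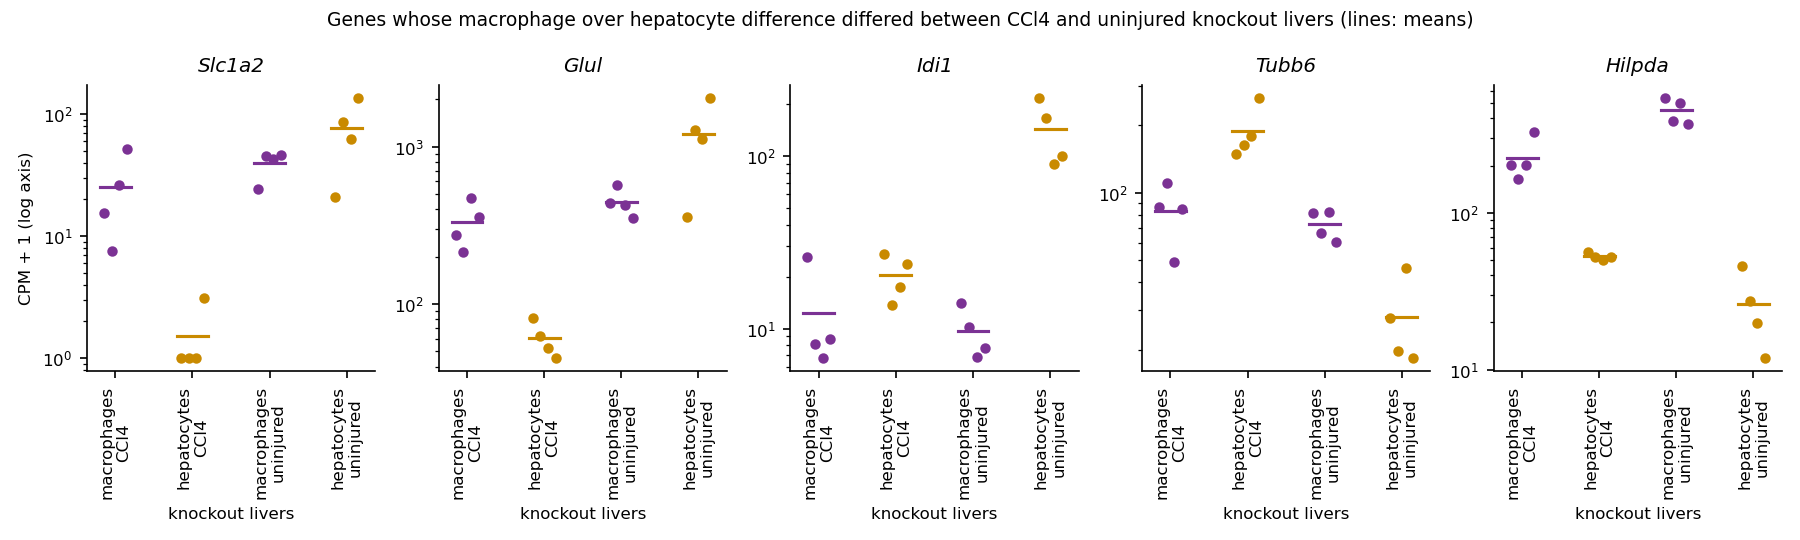
CPM + 1 (log axis) of the 5 genes called in the comparison of CCl4-treated with uninjured knockout livers, for macrophages and hepatocytes of each condition, 4 mice per group, with a line at the mean. Hepatocyte Glul lies at 44.4 to 81.1 CPM after CCl4, against 355 to 2045 CPM without it.

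Against CCl4-treated controls 0 of 11844 genes (0.00%) had a different ratio in edgeR, with 1083 at an unadjusted p below 0.05 and 56 called by DESeq2. The 3 genes of lowest p were Csad, Myo1e and Lifr, each with an edgeR adjusted p of 0.177. Csad, which makes taurine precursors, had 49.8, 46.0, 10.3 and 13.8 CPM in macrophages and 79.4, 84.4, 48.1 and 22.8 CPM in hepatocytes of knockouts, against 8.31, 7.17 and 10.8 CPM in macrophages and 86.2, 326 and 153 CPM in hepatocytes of controls. The knockout macrophage values of mice 13 and 14 (49.8 and 46.0 CPM) were those furthest above the controls. Without control mouse 12, 101 genes were called, and 0 without any other single mouse. All knockout libraries have sequencing file numbers from 25 up, whereas the hepatocyte libraries of control mice 12 and 15 have numbers up to 14 and were deeper, with 4910846 and 5790583 counts. In those 2 mice the cell type and the range of file numbers cannot be told apart. Leaving out pairs that hold such a library keeps only control mouse 16, so a count of calls there decides nothing. Among these libraries, the description of control mouse 15's hepatocyte library names a knockout while its genotype and group labels name a control, and it was kept with the controls.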

How the data were processed

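3′ tag libraries (QuantSeq 3′ FWD, 50 bp single reads, per the labels) were made from macrophages sorted as F4/80+ CD45+ live cells and from hepatocytes purified on Percoll. The authors deposited whole-number counts per gene, 1 table for each cell type, with no normalization. The submitters' processing notes name Trimmomatic 0.39, HISAT2 2.1.0 and GRCm38 (mm10). Which program and annotation produced the counts, and with which strand option, is not given in the sources used here. Reads carry no molecular identifiers that the sources name, so intervals and floors of 3 counts cover counting error only.

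Libraries were grouped by the group label and paired by the mouse number in the titles. Macrophage and hepatocyte libraries of the same mouse number deviated together in 3 of 4 mice (correlation of deviations from the group means 0.133, 0.221, -0.0661 and 0.23 over 9267 genes for mice 13, 14, 17 and 18). Libraries of different mice gave -0.218 to 0.151, so the pairing rests on the labels. Genes in both tables were kept with full library totals, filtered with filterByExpr, scaled by TMM and tested with edgeR 4.0.16 (robust quasi-likelihood, mouse as a block, Benjamini-Hochberg adjusted p below 0.05, R 4.3.3). Each SE was derived from the fold change and its F statistic and is approximate. Changes of the macrophage over hepatocyte difference were tested in a single fit of all 30 paired libraries of 15 mice. The fit was also run on simulated data with 200 changed genes, far fewer than were called here. No hepatocyte counts were mixed into macrophage libraries in that simulation. It therefore does not cover the conditions of these data, and nothing is drawn from it. Named genes were the 8 largest called differences in each direction at a mean of 100 CPM or more in the higher cell type. Also named were the 6 most abundant genes whose interval lay within 0.5 on the log2 scale, Yap1, Wwtr1, Spp1, Cib3 and list members. Examples from the lists were chosen after their values were seen. Members and lists were chosen with earlier results of these data known, and 2 list symbols were brought to those of the files. Alternatives were DESeq2 1.42.0, limma 3.58.1 (voom), other scalings, filters, left-out mice, thinned libraries and subtraction of the same mouse's hepatocyte profile. The fit without mice 13 and 14 took its spread from all other paired libraries, which was decided after seeing the data. Some list members are counted but not reported here by name.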

Additional observations from a re-analysis of the deposited data

Results flagged for a closer look

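For 190 genes named in the text the paired log2 differences of the 4 mice (macrophage minus hepatocyte) were searched for a mouse far from the other 3, and 10 had one. Chance flags about 1 in 20 groups of 4. In mouse 17 the difference was -1.13 for Ctsl (the other mice -0.72 to -0.67), 0.95 for Folr2 (0 in the others, from 1 count), -3.11 for Gdf15 (-1.97 to -1.79) and 6.11 for Ifi44 (3.53 to 3.93). In mouse 18 it was 0.34 for Kif23 (0.64 to 0.69) and 4.05 for Plaur (2.38 to 2.52). In mouse 14 it was -0.84 for Ly96 (0.60 to 0.85) and 3.04 for Spic (5.13 to 5.48). In mouse 13 it was 4.60 for Pfkp (2.56 to 2.90) and 3.10 for Tnf (5.65 to 6.04).

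The macrophage over hepatocyte difference itself differed between CCl4-treated and uninjured knockout livers for 5 genes in the 30-library edgeR fit. The differences on the log2 scale were 5.84 for Slc1a2, 3.65 for Glul, 3.08 for Idi1, -2.70 for Tubb6 and -2.19 for Hilpda. Over the alternatives these were 5.54 to 8.71 for Slc1a2, 3.20 to 4.31 for Glul, 2.47 to 3.49 for Idi1, -3.24 to -2.40 for Tubb6 and -2.45 to -1.89 for Hilpda.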

How the results depend on the processing

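Depth was limited by the smallest macrophage library, and thinning every library to its total left 3557 genes called. Calls of macrophages over hepatocytes were within 1.5 times the 4473 reported under every setting run except a test against a fold of 2, which called 2094 (1270 higher in macrophages, 824 in hepatocytes). Scaling by library totals gave 1288 genes higher in hepatocytes. Leaving out 1 mouse gave 2987 to 3846 calls, with 1706 to 2031 higher in macrophages and 1281 to 1859 in hepatocytes. Without mice 13 and 14 the fit of the 2 remaining mice alone called 5423 of 10442 genes. With the same mouse's hepatocyte profile subtracted, 4537 of 9033 genes were called, 4274 of 4393 comparable calls were kept and 0 changed sign. The kept signs are largely built into that step, so they are no separate check. Without mouse as a block the count was 4498, and the replicate block moved no count over all genes by over 1.5 times. The 5 genes that changed with CCl4 became 71 without a filter on low counts, 64 with DESeq2, 3 when pairs with a library of the lower file numbers, all outside these groups, were left out of the shared spread and 1 to 13 with 1 mouse left out. The 0 genes against CCl4 controls became 664 without a filter, 56 with DESeq2 and 0 to 101 with 1 mouse left out. The cause was not tested. Of 3631 values of named genes under alternatives, 3388 kept direction and side of the threshold, 174 lost a call, 68 gained one and 1 turned direction: Masp1, uncalled here, was 0.82 without mice 17 and 18.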
